A study of Mus musculus with 20 samples.

Results

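Myelin is the stack of membrane that oligodendrocytes wrap around axons in the brain. Its proteins hold the layers together, anchor the sheath to the axon, seal its edges and make its lipids, and most of their genes are switched on together when a precursor cell matures. The 9 genes described here, Mbp, Mag, Mog, Mobp, Cnp, Mal, Ugt8a, Opalin and Cldn11, were taken by name from the 33119 genes of the hippocampal count table as genes of myelin and the mature oligodendrocyte, and all 9 were among the 21724 genes that passed the filter on low counts.

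The hippocampi came from 20 C57BL/6 mice aged 16 months, in 4 groups of 5. The hAPOE4 mice were 5 females titled S164 to S168 and 5 males titled S174 to S178, and the hAPOE3 mice were 5 females titled S144 to S148 and 5 males titled S154 to S158, where the titles run in the order of replicates 1 to 5. All mice were homozygous targeted replacement animals, in which the mouse Apoe gene gives way to the human APOE3 or APOE4 form, so the groups differ in the human allele and none carries unmodified Apoe by its label. Each mouse gave 1 library of bulk RNA, so fewer oligodendrocytes and less RNA per oligodendrocyte cannot be told apart. The libraries held between 35778879 and 52520279 counts. A row for mouse Apoe was still counted in all 20 mice, at 37.4 to 98.9 CPM, which are counts scaled to an equal library size, and it does not check the labelled genotype.

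All 8 members other than Mbp had a promoter sequence in RefSeq's GRCm38.p6 table, and 3 promoters are shown because they hold, or lack, letters bound by factors that switch on myelin genes. The capitals mark the SOX core ACAAAG, letters recognised by the SOX family that includes Sox10, and the motif CTGGNAC of Myrf, the regulator of myelin genes, each on either strand. Each sequence is the 250 bases before a RefSeq start, read along the gene's own strand. Mag, shown at its outermost start, lies at chr7:30914923-30915172, Mog at chr17:37023399-37023648 and Opalin at chr19:41077114-41077363, all on the minus strand.
Mag: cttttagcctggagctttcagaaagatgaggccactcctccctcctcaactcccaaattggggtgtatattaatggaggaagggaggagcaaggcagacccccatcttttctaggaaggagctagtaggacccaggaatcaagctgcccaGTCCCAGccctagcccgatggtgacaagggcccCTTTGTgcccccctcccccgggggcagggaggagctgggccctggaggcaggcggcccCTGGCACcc
Mog: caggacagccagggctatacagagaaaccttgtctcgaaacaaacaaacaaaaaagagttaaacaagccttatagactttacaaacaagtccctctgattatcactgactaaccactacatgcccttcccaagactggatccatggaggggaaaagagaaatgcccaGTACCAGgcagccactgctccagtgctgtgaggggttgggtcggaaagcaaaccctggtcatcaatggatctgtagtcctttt
Opalin: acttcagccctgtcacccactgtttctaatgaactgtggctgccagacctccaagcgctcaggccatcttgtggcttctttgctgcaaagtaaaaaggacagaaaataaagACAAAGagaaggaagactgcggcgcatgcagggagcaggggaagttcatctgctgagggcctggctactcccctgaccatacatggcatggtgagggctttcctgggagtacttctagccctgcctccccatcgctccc

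In these windows of 250 bases, CTGGNAC occurred for 3 of the 8 members, Mag, Mog and Cnp, against 16.1% of 32851 promoters of the same length. The SOX core occurred for 4 of the 8, Mag, Cnp, Mobp and Opalin, against 16.5% of all promoters. A member counted if any of its windows held the letters, while the shares are per single promoter. Mag had 3 starts, and the window of start 3 held neither motif. The motifs do not overlap each other in the sequences shown. The letters of the Sp1 box, GGGCGG, were found for Cnp and Ugt8a (32.7% of all promoters), and the E-box CAGCTG and the TATA box TATAAA for none of the 8 (13% and 12.4%). Base composition also set the members apart from each other: the window of Ugt8a had 76.8% G and C and 32 CG pairs, that of Mobp 40.8% and 4, and that of Opalin 54.4% and 4. Motif matches describe these windows and do not show binding.

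Markers of the labelled tissue were present: 10 of 10 genes of hippocampal subfields passed the filter, with a summed level of 523 to 1107 CPM per mouse. Schwann cells, which make myelin outside the brain and share Mbp, Mag and Mal, have markers of which 4 of 6 passed, with a sum of 11.2 to 33.6 CPM. Per kilobase of its longest coding transcript, the median level over the 20 mice was 411 CPM for Mbp, myelin basic protein, which glues the inner faces of the membrane together. Mobp, a second protein of compact myelin, followed at 306 CPM per kilobase. Cnp, an enzyme of the uncompacted channels, stood at 92.6, Mal, a proteolipid of compact myelin, at 75.5, and Cldn11, the claudin of the tight junctions between the layers, at 69.7 CPM per kilobase. Lower down came Mag, the adhesion protein that faces the axon, at 56.4, Mog, a protein of the outermost surface, at 31.2, Ugt8a, the enzyme that makes galactosylceramide, at 12.3, and Opalin, a membrane protein of the oligodendrocyte, at 7.28 CPM per kilobase. These levels depend on which transcript gives the length: with the shortest coding transcript Mbp stood at 5566, Mobp at 2311, Mal at 431 and Mag at 406 CPM per kilobase.

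The counts behind these levels ran from 350 for Opalin in 1 mouse to 344319 for Mbp in another, so counting noise was small for each member. In the GRCm38 annotation, exons of Cnp (chr11:100574904-100591729, plus strand) overlap exons of Dnajc7 on the opposite strand, and exons of Mobp (chr9:120149707-120181484, plus strand) overlap exons of Gm38642 on the same strand, which leaves the counts of both uncertain. Mag lies at chr7:30899176-30914873, 11.2 Mb from the replaced gene Apoe on the same chromosome.

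Before the groups are compared, 3 males have to be named, because they stood apart from the other 17 mice. In the hAPOE3 male S158 and the hAPOE4 males S176 and S178, each of 8 markers of thalamic neurons, a cell type from outside the hippocampus, lay above its highest value in the other 17 mice. Prkcd, a kinase of thalamic relay neurons, was at 228, 137 and 226 CPM in S158, S176 and S178, against 16.5 to 50.7 in the others. Tnnt1 stood at 20.03, 14.0 and 41.6 CPM against 0.542 to 1.4997. The thalamic score, the average over the 8 genes of log2 CPM with each gene's own mean taken off, was 2.03, 1.82 and 2.04 in these 3 males and at most -0.13 in every other mouse. The 3 were picked by a score above 1, so their high values for these 8 markers are no separate result. One of the 8, Tcf7l2, is also expressed in the oligodendrocyte lineage. S158 in addition had the highest striatal score, 2.61, against -0.57 to 0.96 in those 17 mice.

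The myelin genes were highest in 2 of these 3 males. In S158, 8 of the 9 members lay above each of the other 17 mice, the exception being Ugt8a. In S176 it was again 8 of 9, with Opalin as the exception, and in S178 it was 3: Mbp, Mag and Cnp. Relative to the median of the other 17 mice, Mbp was 3.33-fold higher in S158, 2.25-fold higher in S176 and 1.55-fold higher in S178, while Mal stood at 1.61, 1.59 and 0.889 of that median. The member score, made like the thalamic score from the 9 members, was 0.98 in S158, 0.70 in S176 and 0.05 in S178, and -0.44 to 0.22 in the other mice. S178 had as high a thalamic score as S158 with a member score inside the range of the others. The hippocampal subfield score was -0.41, -0.26 and -0.82 in S158, S176 and S178, against -0.33 to 0.50 elsewhere. The part of other tissue in these levels was not tested, and the comparisons of the members are given with and without these 3 mice.

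**Figure D1:**
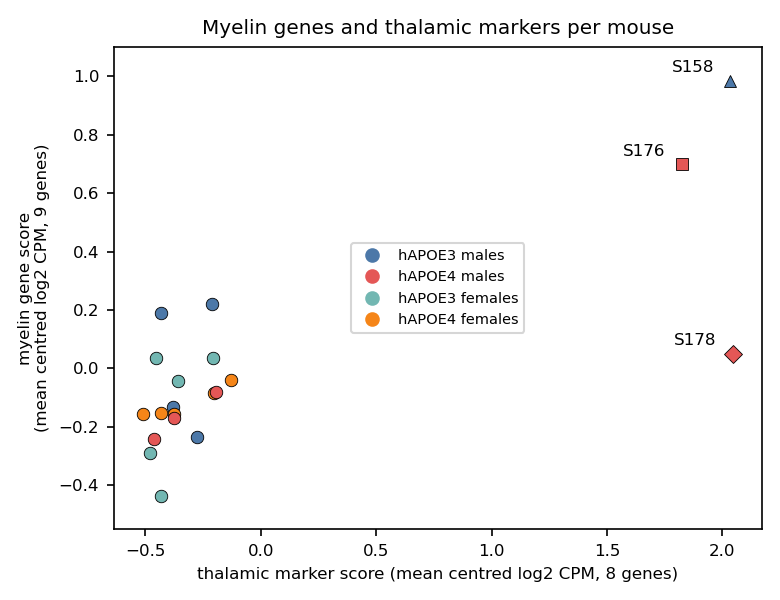
Score of the 9 myelin genes (vertical) against the score of 8 thalamic neuron markers (horizontal), both as mean centred log2 CPM, with 1 point per mouse coloured by group. S158, S176 and S178 lie at thalamic scores of 1.82 to 2.04, and S158 and S176 also have the highest myelin scores, 0.98 and 0.70.

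Mbp shows the pattern most plainly. In hAPOE3 males it was measured at 1737, 2094, 2492, 2528 and 6357 CPM, the last in S158. In hAPOE4 males the values were 1753, 1796, 1906, 2952 and 4294 CPM, the upper 2 in S178 and S176. The females were lower at the top of their range. hAPOE3 females stood at 1631, 1632, 2099, 2165 and 2436 CPM and hAPOE4 females at 1587, 1891, 1891, 1952 and 1989 CPM, so that each group overlapped every other. With hAPOE3 the mean was 3042 ± 1881 CPM (SD, n = 5) in males and 1993 ± 353 in females, and with hAPOE4 it was 2540 ± 1098 in males and 1862 ± 159 in females.

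Mag had the same 2 mice on top. It was at 125, 133, 141, 178.1 and 331 CPM in hAPOE3 males and at 127, 133, 147.9, 185 and 319 CPM in hAPOE4 males. In females it was at 110, 116, 123, 134 and 156.2 CPM with hAPOE3 and at 117, 130, 147.03, 149 and 153 CPM with hAPOE4. The male and female ranges overlapped in both genotypes. Cnp ranged from 196 to 474 CPM in hAPOE3 males, 206 to 470 in hAPOE4 males, 160 to 245 in hAPOE3 females and 204 to 225 in hAPOE4 females.

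The remaining structural genes likewise had their highest values in males, in S158 with hAPOE3 and in S176 with hAPOE4. Mog reached 114 CPM in hAPOE3 males and 86.9 in hAPOE4 males, against at most 60.8 and 55.5 CPM in hAPOE3 and hAPOE4 females. Mobp reached 2719 and 1637 CPM in the males and 1284 and 1095 CPM in the females, Cldn11 reached 241 and 227 against 145.3 and 133 CPM, and Mal 331 and 328 against 231 and 233 CPM. Within the hAPOE4 females the mice were close together: the SD of log2 CPM was 0.05 for Cldn11, 0.06 for Cnp, 0.09 for Mog and 0.10 for Mobp. In hAPOE3 males, with S158 among them, these SDs were 0.43, 0.51, 0.46 and 0.66. They were 0.42, 0.50, 0.37 and 0.37 in hAPOE4 males, with S176 among them, and 0.25, 0.24, 0.24 and 0.31 in hAPOE3 females.

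**Figure D2:**
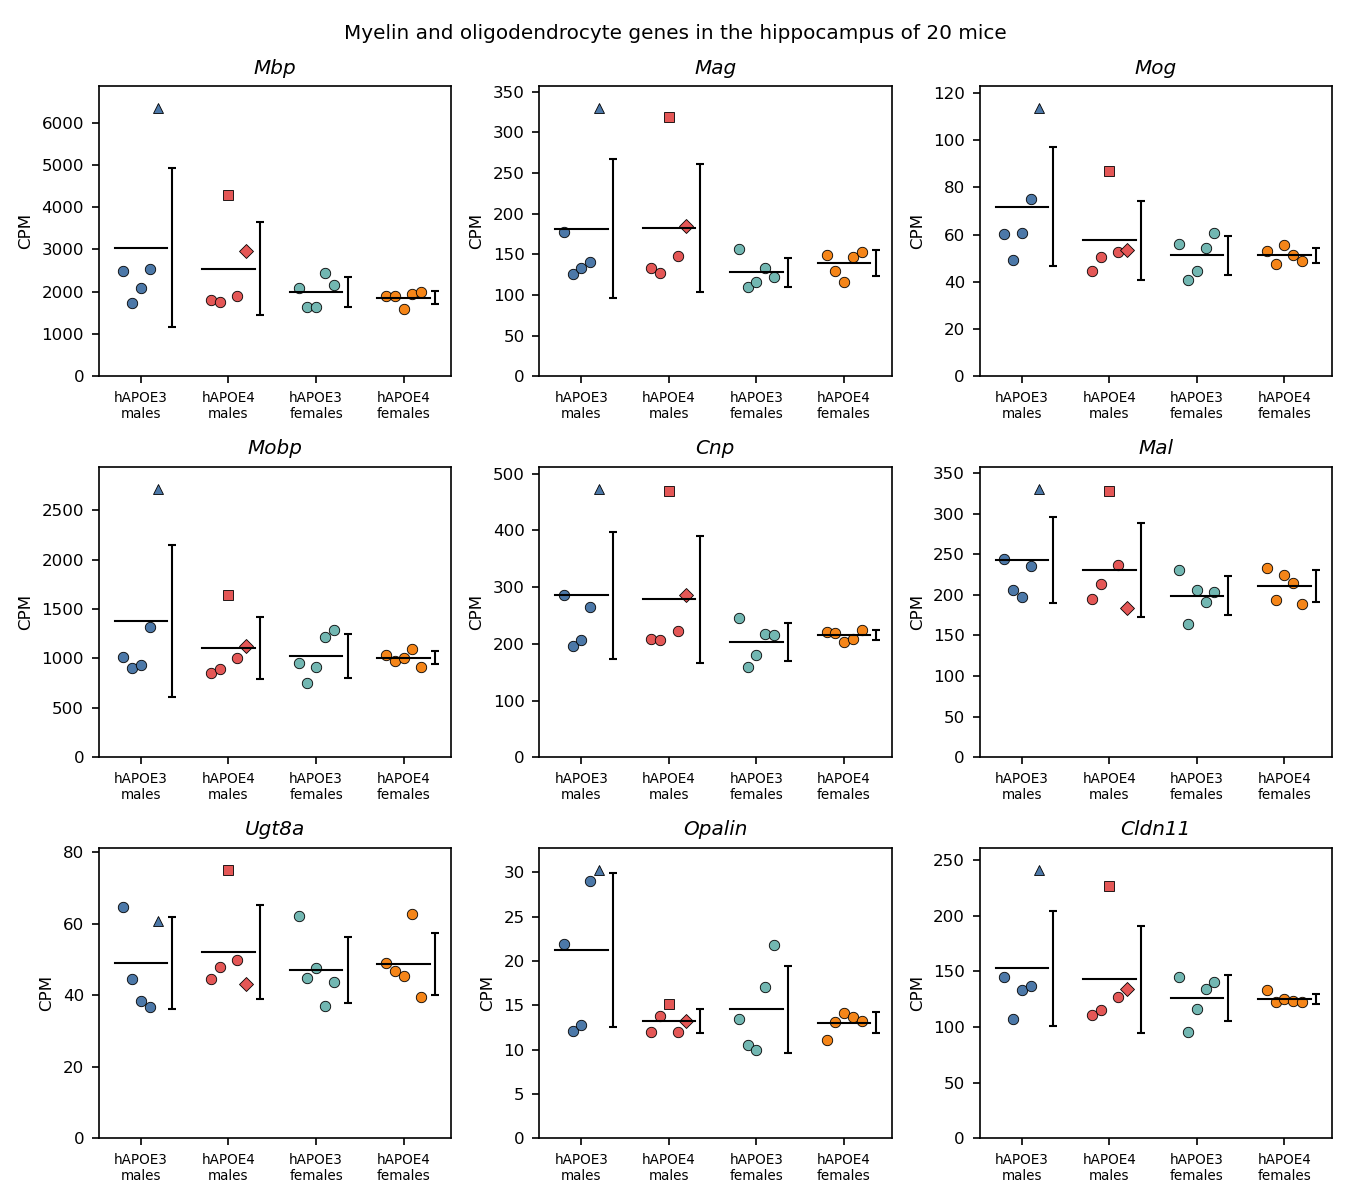
TMM-normalized CPM of each of the 9 genes (vertical, linear from 0) in each mouse, by group, with horizontal lines at the group mean and bars of 1 SD (5 mice per group). The triangle is S158, the square S176 and the diamond S178; for Mbp these 3 mice are the highest of all 20, at 6357, 4294 and 2952 CPM.

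The comparison of the genotypes asked whether human APOE4 in place of APOE3 went with other levels of the myelin genes in either sex. By edgeR's quasi-likelihood test with Benjamini-Hochberg adjustment over all genes tested, 0 of the 9 members passed the threshold of 0.05 in males, where 0.621% of all genes did, and 0 of 9 in females, where 0.667% did. DESeq2's Wald test likewise called 0 in each. At an unadjusted p under 0.05 there was 1 member in males, Opalin, and 0 in females, against 9.06% and 10.1% of all genes. No member separated the genotypes without overlap in males or in females, as 1.44% and 3.27% of all genes did.

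In females the log2 fold changes of hAPOE4 over hAPOE3 ran from -0.16 for Opalin to 0.12 for Mag, with a median of 0.00, 5 of them below 0 (49.7% of all genes), and the 95% intervals reached from -0.71 to 0.65. In males they ran from -0.68 for Opalin to 0.09 for Ugt8a, with a median of -0.10, and 7 were below 0 (49.7% of all genes). For Mbp in males the difference was -0.26 (95% interval -0.87 to 0.35), and for Mag 0.01 (-0.51 to 0.53), so that both intervals hold differences in either direction. The male value of Mbp turned on single mice, at 0.20 without S158 and -0.53 without S176. With the thalamic score as a covariate it was -0.41 (adjusted p = 0.288 by edgeR). In that fit 8 of the 9 members were below 0 in males, with a median of -0.21. By edgeR 4 of the 9 had an unadjusted p under 0.05, against 9.06% of all genes in the fit without the covariate. With the covariate 0 of 9 were called, against 0.654% of all genes. Without S158, S176 and S178 the median was -0.18 in males, with 8 of 9 below 0, and 0.01 in females, and again 0 members were called. Averaged over the sexes, where 2.45% of all genes were called, 0 of 9 members were by edgeR or DESeq2, 5 of 9 were below 0 (49.7% of all genes), the median was -0.05, and 1 had an unadjusted p under 0.05 (17.9% of all genes). That member was Opalin (log2 fold change -0.42, SE 0.17, adjusted p = 0.183 by edgeR). The median of this average without S158, S176 and S178 was -0.08, with 6 of 9 below 0 and 0 called. The intervals of the difference between the sexes in the genotype effect, the interaction, spanned -0.70 to 1.21 over the members, with 0 of 9 called by edgeR or DESeq2, 0 at an unadjusted p under 0.05 (2.54% of all genes), 1 of 9 below 0 (50.2%) and 0.184% of all genes called. Without the 3 mice 0 of 9 were below 0 in the interaction, the median was 0.21 and 0 were called by edgeR, with 0 at an unadjusted p under 0.05.

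The comparison of the sexes gave lower fitted values in females for every member. In hAPOE3 mice all 9 log2 fold changes of females over males were below 0, with a median of -0.49, and in hAPOE4 mice all 9 were below 0, with a median of -0.17. These comparisons use different mice. Of all genes tested, 49.4% and 52.7% lay below 0, and the median of all genes was 0.00 and -0.01. None of the 9 members passed the threshold by edgeR or DESeq2 in either genotype, where edgeR called 0.0414% and 0.437% of all genes, and no member was without overlap between the sexes, as 0.723% of all genes were in each. At an unadjusted p under 0.05 there were 3 of 9 in hAPOE3 mice, Mog, Cnp and Opalin, and 0 in hAPOE4 mice, against 5.22% and 5.8% of all genes.

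Averaged over the genotypes, Mbp differed most between the sexes, by -0.53 on the log2 scale (SE 0.21, adjusted p = 0.391 by edgeR). Cnp stood at -0.43 (adjusted p = 0.359) next to Mag at -0.45 (adjusted p = 0.392), both by edgeR, and Mog stood at -0.33. These 4 of 9 had an unadjusted p under 0.05, against 10% of all genes, and 0 were called by edgeR or DESeq2, against 0.129% by edgeR. All 9 were below 0, as 51.2% of all genes were. Ugt8a was the closest to 0, at -0.08 with a 95% interval from -0.35 to 0.19.

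Markers of the choroid plexus, the tissue that makes cerebrospinal fluid and lies against the hippocampus, had fitted sex differences in the other direction. In the mean of both genotypes 12 of 12 were higher in females, where 51.2% of all genes were below 0. Their median log2 fold change was 1.54. Of the 12, 8 had an unadjusted p under 0.05 by edgeR (10% of all genes) and 0 were called (0.129%). The 12 are markers of 1 tissue, so they do not count as 12 separate results. With S158, S176 and S178 left out the median was 2.87. By edgeR 12 of 12 then had an unadjusted p under 0.05, against 10% of all genes with all 20 mice. Still 0 were called, against 0.0494% of all genes in that fit. Their summed level ran from 94.96 to 3361 CPM in hAPOE3 males, 134 to 2994 in hAPOE4 males, 96.2 to 3951 in hAPOE3 females and 117 to 6719 in hAPOE4 females, so the groups overlapped. The score of these markers was 1.05 in S158, 1.88 in S176 and -0.06 in S178, against -2.33 to 2.85 in the other 17 mice. Their median r with the mean of the members, with group means taken off, was 0.59 over 20 mice and 0.32 over 17. The median r was 0.77 and 0.10 for 7 thalamic markers, and 0.73 and 0.36 for 8 striatal markers. The 8 thalamic markers, on which the 3 males were set apart, were below 0 in the mean sex difference, with a median of -0.97. Of these, 8 had an unadjusted p under 0.05 by edgeR (10% of all genes). The 8 striatal markers were also below 0 (51.2% of all genes), with a median of -0.56 and 1 such p. In both lists 0 were called (0.129%). Without the 3 males the medians were -0.02 and 0.30. The part of these tissues in the sex difference of the members was not tested.

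The sex difference was smaller without the 3 males named above. Without S158, S176 and S178, the median over the members of the mean sex difference was -0.07 in place of -0.28, 6 of 9 were below 0, and 0 had an unadjusted p under 0.05. In hAPOE4 mice alone, 1 of 9 was then below 0 and the median was 0.06, on the other side of 0. In hAPOE3 mice, 8 of 9 stayed below 0 with a median of -0.16. The spread within groups was also smaller for most members: the SD of log2 CPM around the group means was 0.48 for Mbp with them and 0.20 without, and 0.41 and 0.18 for Mag. For Opalin it was 0.41 and 0.40, and for Ugt8a 0.31 and 0.27, so that both kept most of their spread among the other 17 mice.

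**Figure D3:**
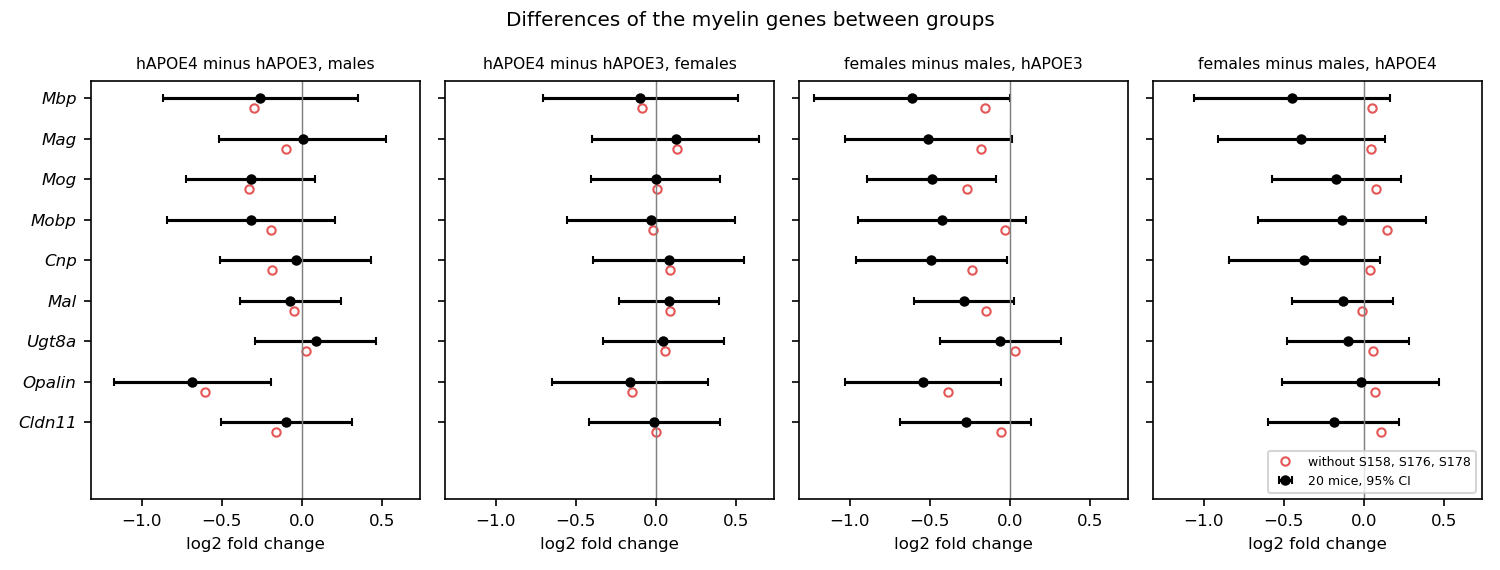
Log2 fold changes of the 9 genes from edgeR in 4 comparisons (horizontal), with 95% confidence intervals from all 20 mice (filled) and the estimate without S158, S176 and S178 (open). In hAPOE4 mice the 9 filled points of the sex comparison lie below 0, with a median of -0.17, and 8 of the 9 open points lie above 0.

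The members varied together to differing degrees. Over the 36 pairs of members, Pearson's r of log2 CPM after the group means were taken off was between 0.15 and 0.96 across the 20 mice, with a median of 0.80. The lowest was that of Opalin with Ugt8a and the highest that of Mag with Cnp. Over the 17 mice left without S158, S176 and S178 the range was -0.14 to 0.86 and the median 0.65. There Ugt8a had an r of 0.01 with Mbp, -0.14 with Mobp and -0.07 with Opalin, but of 0.52 with Mag and 0.54 with Mal. Opalin had an r of 0.81 with Mobp, 0.79 with Mog and 0.75 with Mbp, but of 0.30 with Mag and 0.37 with Mal. These values describe libraries that share tissue dissection and normalization, and no p is given.

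The values of Opalin spread widely with hAPOE3 and narrowly with hAPOE4. In hAPOE3 males it stood at 12.1, 12.8, 21.9, 29.0 and 30.3 CPM and in hAPOE3 females at 9.99, 10.5, 13.5, 17.05 and 21.7 CPM. In hAPOE4 males it was at 11.9, 11.9, 13.3, 13.8 and 15.1 CPM and in hAPOE4 females at 11.1, 13.1, 13.2, 13.7 and 14.1 CPM. All 10 hAPOE4 mice thus lay between 11.1 and 15.1 CPM, and hAPOE3 mice lay below, inside and above that range. The male difference was -0.68 on the log2 scale (SE 0.23, adjusted p = 0.33 by edgeR), and it was -0.60 without S158, S176 and S178 (adjusted p = 0.603 by edgeR).

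Ugt8a took other values in the same hAPOE3 mice. In hAPOE3 males it was at 64.5 CPM in S154, 44.5 in S155, 38.4 in S156, 36.8 in S157 and 60.9 in S158. In hAPOE3 females it was at 62.1 CPM in S144, 44.9 in S145, 47.7 in S146, 37.0 in S147 and 43.7 in S148. The hAPOE4 males ranged from 43.2 to 75.1 CPM and the hAPOE4 females from 39.4 to 62.8, so the 4 groups overlapped. S157, with the second highest Opalin of all mice, had the lowest Ugt8a.

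The ratio of the counts of both genes brings this out within each library, since the depth of the library cancels. Opalin counts were 21.7, 23.3, 21.0, 46.1 and 49.8% of Ugt8a counts in the hAPOE3 females S144 to S148, in that order. In the hAPOE3 males S154 to S158 they were 33.9, 27.1, 33.4, 78.9 and 49.8%. In hAPOE4 mice they were 20.1 to 30.7% in males and 21.8 to 33.5% in females. Another measure moved with this ratio: the score of 87 nuclear genes of oxidative phosphorylation, the respiratory chain encoded outside the mitochondrion, was 0.30 to 0.41 in S147, S148, S156, S157 and S158 and -0.31 to 0.03 in the other 15 mice. Of these 5 mice, 4 had the highest Opalin shares of all 20, and S156, at 33.4%, lay among the rest. This was noticed after the values were seen, and its part in the Opalin difference was not tested. Without these 5 mice, which leaves 3 hAPOE3 females and 2 hAPOE3 males, Opalin stood at -0.37 in males (adjusted p = 0.795 by edgeR) and at 0.20 in females (adjusted p = 0.693 by edgeR). In the mean of both sexes it stood at -0.08 (adjusted p = 0.778 by edgeR), and the median over the members was 0.12 with 2 of 9 below 0.

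**Figure D4:**
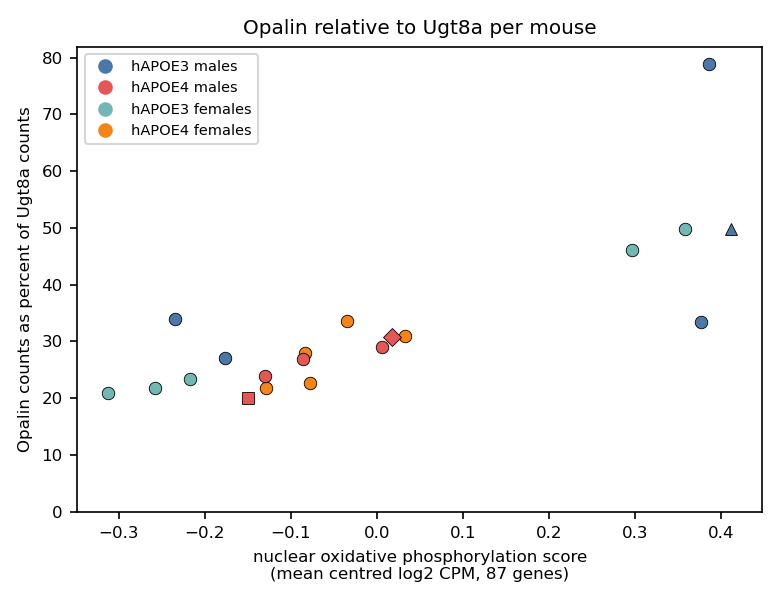
Opalin counts as a percent of Ugt8a counts (vertical, linear from 0) against the score of 87 nuclear oxidative phosphorylation genes (horizontal, mean centred log2 CPM), 1 point per mouse coloured by group; the triangle, square and diamond are S158, S176 and S178. The 5 points at scores of 0.30 to 0.41 are hAPOE3 mice with shares of 33.4 to 78.9%, and the hAPOE4 mice lie between 20.1 and 33.5%.

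Outside the members, the genes most like them were ranked by Pearson's r with the mean log2 CPM of the 9 members, over the 20 mice after group means were taken off, among 14308 genes. Gatm, an enzyme of creatine synthesis, came first with an r of 0.98, and 0.94 over the 17 mice. S1pr5 and Lpar1, receptors for lysophospholipids, had 0.96 and 0.95 over 20 mice and 0.84 and 0.90 over 17. Further genes among the leading 10 were Tmem88b, Prr18, Bcas1, Insc, Rffl and Adssl1, with r of 0.95 to 0.96 over the 20 mice. Of 30 other genes of myelin and mature oligodendrocytes, the median r was 0.88 over 20 mice and 0.65 over 17, and for 21 genes of myelin lipid and cholesterol synthesis it was 0.19 and 0.08.

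The other genes of the lineage were read from lists. Of the 30 further mature oligodendrocyte genes, 29 were below 0 in females against males averaged over the genotypes, with a median log2 fold change of -0.25, 12 of them had an unadjusted p under 0.05, and 0 were called by edgeR. Of all genes, 51.2% were below 0 in that comparison, 10% had an unadjusted p under 0.05 and 0.129% were called. The score of the 30 genes was 0.84 in S158, 0.67 in S176 and 0.16 in S178, against -0.33 to 0.16 in the other 17 mice. Without these 3 mice 19 of the 30 were below 0, with a median of -0.01, 0 of those below 0 and 1 above it had an unadjusted p under 0.05, and 0 were called by edgeR. In the genotype mean 13 of the 30 were above 0 and 17 below, with a median of -0.02 and 0 called, and without the 3 mice 11 were above 0 and 19 below, with a median of -0.05 and 0 called. The 3 with the lowest p were Anln, a cytoskeletal scaffold of the myelin sheath, at 0.26 on the log2 scale, Aspa, which cleaves N-acetylaspartate, at -0.21, and Adamts4, a protease of the matrix, at 0.27, all with an adjusted p of 0.291 or more by edgeR. Of the 21 lipid synthesis genes, 10 were above 0 and 11 below in the genotype mean, with 0 called and a median of -0.01, and without the 3 mice it was 9 above and 12 below, with 0 called. Fdps, an enzyme of the cholesterol route, stood at -0.15 on the log2 scale and Elovl7, a fatty acid elongase, at 0.30.

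Among 10 transcription factors of the lineage, 8 were above 0 in hAPOE4 against hAPOE3 averaged over the sexes, where 49.7% of all genes were below 0 and 2.45% were called. Their median was 0.11, 1 had an unadjusted p under 0.05 (17.9% of all genes) and 0 were called by edgeR. When S158, S176 and S178 were left out, 7 were above 0, the median was 0.12 and 0 were called. This lean was not particular to the lineage. With all 20 mice, 8 of 10 astrocyte markers (median 0.12) and 6 of 8 endothelial markers (median 0.14) were above 0 in the genotype mean. Of neuron and microglia markers, 4 of 10 and 3 of 10 were above 0. In these 4 lists 0 were called by edgeR. Olig2, which specifies the lineage, stood at 0.23 (SE 0.09, adjusted p = 0.178 by edgeR). Myrf, whose motif is shown above, stood at 0.21 and Sox8 at -0.13. Levels of Olig2 overlapped between the genotypes, at 19.8 to 29.3 CPM in hAPOE3 males and 22.7 to 31.8 in hAPOE4 males.

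The gene that passed the threshold in these lineage lists was Gpr17, a receptor found on precursors that have committed to become oligodendrocytes and are not yet making myelin. It stood at 20.8, 26.4, 28.4, 36.4 and 37.1 CPM in hAPOE3 females and at 39.8, 41.8, 42.2, 42.4 and 43.9 CPM in hAPOE4 females, with no overlap. In hAPOE3 males it stood at 21.5, 27.3, 27.4, 31.5 and 36.8 CPM and in hAPOE4 males at 36.8, 38.8, 38.8, 44.7 and 48.4 CPM, where the highest hAPOE3 mouse lay just above the lowest hAPOE4 mouse. Averaged over the sexes, Gpr17 rose by 0.51 on the log2 scale in hAPOE4 mice (SE 0.10, adjusted p = 0.00917 by edgeR and 0.000263 by DESeq2). In females alone it was 0.49 (adjusted p = 0.141 by edgeR) and in males alone 0.52 (adjusted p = 0.156 by edgeR).

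The call of Gpr17 depended on which mice entered. Without S158, S176 and S178 the difference was 0.44 (adjusted p = 0.0611 by edgeR), and without S147, S148, S156, S157 and S158 it was 0.30 (adjusted p = 0.118 by edgeR). Of the 12 genes of precursors and newly formed oligodendrocytes, 10 were above 0 in the genotype mean, with a median of 0.18, 4 had an unadjusted p under 0.05, and Gpr17 was the 1 called. Of all genes, 49.7% were below 0 there, 17.9% had an unadjusted p under 0.05 and 2.45% were called. In the fit that left out S158, S176 and S178, 9 of the 12 were above 0, the median was 0.16, 3 had an unadjusted p under 0.05 and 0 were called by edgeR. Cspg4, the NG2 proteoglycan of precursors, stood at 0.32 (adjusted p = 0.0732 by edgeR) and Pdgfra, the growth factor receptor of the same cells, at 0.31 (adjusted p = 0.188 by edgeR). These 2 genes were named after their values were seen, and both lie above the median of the list. The 2 of the 12 below 0 were Cacng4 at -0.06 and Enpp6 at -0.02. The 9 myelin genes had a median of -0.05 in that comparison, and the difference between the lists was not tested.

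**Figure D5:**
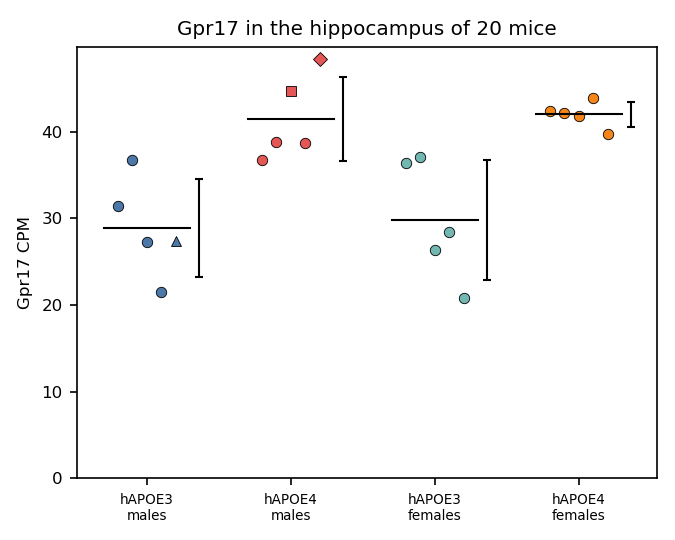
TMM-normalized CPM of Gpr17 (vertical, linear from 0) in each mouse by group, with horizontal lines at the group mean and bars of 1 SD (5 mice per group). The hAPOE4 mice lie between 36.8 and 48.4 CPM and the hAPOE3 mice between 20.8 and 37.1 CPM.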

How the data were processed

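RNA of the hippocampus of 20 mice, enriched for polyA, was sequenced as paired-end reads. The authors quantified mouse transcripts with Salmon 0.91, and tximport gave the per-gene sums. These estimated counts were deposited as whole numbers, not normalized, and were used as they are. Whether strand was used is not given in the sources used here. The other deposited table is a signal, the counts after the authors' DESeq2 scaling by factors specific to gene and mouse, and it served only as an alternative. All columns were matched to mice by title, and 0 were left out.

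Groups were compared in R 4.3.3 by edgeR 4.0.16, using TMM, filterByExpr by group, glmQLFit and glmQLFTest on 1 mean per group over all 20 mice, Benjamini-Hochberg adjustment over 21724 genes and a threshold of 0.05. The 7 comparisons were the genotypes in each sex and averaged, the sexes in each genotype and averaged, and the interaction. Comparisons that share a group share its mice. CPM are TMM-normalized, and log2 CPM has a prior count of 2. Alternatives were DESeq2 1.42.0, its size factors in edgeR, no filter on low counts, no mitochondrial genes, only the groups compared, limma 3.58.1 on log2 of the deposited normalized counts plus 1, and each mouse left out. Another 3, without mice named in the text or with the thalamic score as a covariate, were added after seeing the data. The edgeR and DESeq2 fits were run on simulated counts without mice set apart, and only edgeR's genotype mean had to meet a limit.

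In all 190 pairs of libraries the counts differed by at least 7.28 in chi-square per degree of freedom, and none was treated as a repeat. The SE given with edgeR was computed as the absolute log2 fold change over the square root of the test's F. The 95% intervals use this SE with a quantile of the t distribution. Promoters come from RefSeq (GRCm38.p6), positions and transcript lengths from GENCODE M21 (GRCm38).

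The members and lists were chosen with earlier results of these data known. All members were named. From 4 lineage lists, genes past the threshold in any comparison were named, and otherwise the 3 with the lowest p in the genotype mean. Likeness ranked genes with a mean log2 CPM above 1. The results of some genes that these rules name are not reported here.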

Additional observations from a re-analysis of the deposited data

Results flagged for a closer look

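The 9 genes and 4 groups form 36 groups of 5 mice. In 6 of them, the gap of a mouse to its nearest neighbour took more than 0.71 of the whole range of log2 CPM. For a single group chance gives about 1 in 20. The 9 genes were measured in the same mice and most varied together. The 36 groups are therefore not independent, and the 6 cannot be set against that rate. The hAPOE4 male S176 was far above its group for 3 genes. Mog was at 86.95 CPM there, with the next mouse at 53.44, Ugt8a at 75.12 with the next at 49.76, and Cldn11 at 226.5 with the next at 134.3. The hAPOE3 male S158 stood at 6357 CPM for Mbp with the next at 2528. Both are among the 3 mice with high thalamic markers. The other 2 were low values in hAPOE4 females, where the mice lay close together: Mbp at 1587 CPM in S166 with the next at 1891, and Opalin at 11.06 CPM in S164 with the next at 13.14.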

How the results depend on the processing

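Under every alternative run, 0 of the 9 members were called in each of the 7 comparisons, and the lowest adjusted p of a member was 0.0773, for Opalin in the genotype mean without hAPOE3 male S155. Signs were less stable. Of 63 member values, 1 changed sign with DESeq2, 3 with limma on the deposited normalized counts, 16 without S158, S176 and S178, 18 with the thalamic score as a covariate and 22 without S147, S148, S156, S157 and S158. Leaving out S158 alone changed 14, and S176 alone 14. The share of all tested genes called moved more. Given in the order genotypes in males, in females and averaged, sexes in hAPOE3, in hAPOE4 and averaged, then the interaction, edgeR called 0.621, 0.667, 2.45, 0.0414, 0.437, 0.129 and 0.184%, and DESeq2 called 1.07, 1.59, 5, 0.106, 0.718, 0.741 and 0.299%. For the genotypes in males and the sexes in hAPOE4 mice it was 0.667% and 0.571% without the filter, where more genes enter the test, and 0.219% and 0.155% with only the groups compared. With limma it was 0.216% for the sexes in hAPOE4 mice, 0.0414% for their mean and 0.0737% for the interaction. Without S158, S176 and S178 it was 0.319% for the genotypes in males, 1.47% for their mean, 0.261% for the sexes in hAPOE4 mice, 0.0494% for their mean and 0.0449% for the interaction. Without S147, S148, S156, S157 and S158 it was 0.136% and 0.416% for the genotypes in males and females, 0.744% for their mean, 0.648% for the sexes in hAPOE4 mice, 0.0657% for their mean and 0 for the interaction by edgeR (2.74% at an unadjusted p under 0.05). Leaving out 1 mouse at a time gave 0.449 to 1.3% and 0.335 to 1.16% for the genotypes in males and females, 1.28 to 3.57% for their mean, 0.0405 to 0.0677% and 0.317 to 1.24% for the sexes in hAPOE3 and hAPOE4 mice, 0.0633 to 0.749% for their mean and 0.136 to 0.533% for the interaction. The cause was not tested. No paired analysis was possible because each mouse has its own title and the groups share no number in the labels.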
